A study of Homo sapiens with 10 samples.

Results

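Integrins are receptors at the cell surface that are built from an alpha and a beta subunit and tie the matrix outside the cell to actin inside it. The subunits described here bind collagen, laminin, fibronectin or vitronectin, and 10 genes were taken by name for this: ITGA1, ITGA2, ITGA3, ITGA5, ITGAV, ITGB1, ITGB3, ITGB5, ITGB6 and ITGB8. All 10 were found among the 58050 genes of the table, and 7 of them had the mean of at least 1 TPM that was required for a test. TPM, transcripts per kilobase scaled to the same total in each library, are divided by transcript length, so levels of different genes can be set side by side. Further subunits, among them those of hemidesmosomes and of leukocytes, were kept apart, so the 10 are not all integrin subunits that bind matrix.

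HCT116 is a human colorectal carcinoma line of epithelial origin. RNA was sequenced from 5 cultures of HCT116-WT cells and from 5 cultures of HCT116-CD276KO cells, in which CD276 (B7-H3), a surface protein of the B7 family, had been edited with Cas9 ribonucleoprotein. The HCT116-CD276KO cells were 1 clone grown from a single cell, so replicates show how cultures vary, and loss of CD276 cannot be told apart from traits of that clone. All cultures were grown in McCoy's 5A medium with fetal calf serum. A scrambled guide is named in the protocol as the control of the editing, but whether the HCT116-WT cultures had received it is not given in the sources used here. Values of single libraries are listed below in the order of the replicate numbers. The comparison asks whether the cells without CD276 differ from their parent in the receptors that hold them to matrix.

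Beta subunits decide much of where an integrin is sent and what it signals. ITGB1 is the common partner of ITGA1, ITGA2, ITGA3 and ITGA5, and also pairs with ITGAV. ITGAV pairs with ITGB3, ITGB5, ITGB6 and ITGB8 as well, and its pairs with ITGB6 and ITGB8 are known for binding latent transforming growth factor beta and setting it free.

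CD276 itself stood between 38.08 and 53.61 TPM in HCT116-WT cells and between 4.4 and 7.42 TPM in HCT116-CD276KO cells, which fits the labels. Of the epithelial markers, EPCAM, KRT8, KRT18, KRT19 and CDH1 were present in every library, and VIL1 was absent or nearly so, at up to 0.05 TPM. The summed epithelial level of 6 genes lay between 4173 and 4942 TPM in HCT116-WT cells and between 3306 and 3773 TPM in HCT116-CD276KO cells. The defining markers of leukocytes, 5 genes, summed to at most 0.81 TPM and those of endothelium, 4 genes, to at most 0.65 TPM. The 6 fibroblast genes summed to between 4.54 and 8.99 TPM, nearly all of it COL1A1, with LUM at 0 in all 10 libraries. The epithelial sum did not overlap between the groups, and its part in the results was not tested.

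The levels of long transcripts varied from library to library, which bears on the integrins because many of their transcripts are long. Over 13472 genes, which are not independent replicates, deviations and transcript length had a Spearman correlation of -0.52 in HCT116-CD276KO replicate 2 and -0.49 in replicate 3. It was 0.43, 0.39 and 0.41 in HCT116-WT replicates 1, 2 and 5, and between -0.094 and 0.32 in the other 5 libraries. HCT116-CD276KO replicates 2 and 3 stand apart by length. By GC content the highest correlations were 0.61 in HCT116-WT replicate 3 and 0.48 in HCT116-CD276KO replicate 2, and the other 8 libraries lay between -0.34 and 0.023. Results are given with and without HCT116-CD276KO replicates 2 and 3, and after the trends with length and GC content had been removed library by library.

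Across the series 662 of 13581 genes were called, meaning an adjusted p-value under 0.05 in limma on log2(TPM + 1), with 556 lower and 106 higher in HCT116-CD276KO cells. That is 4.87% of the genes tested, with 4.09% lower and 0.781% higher. With length and GC trends removed the split was 699 lower and 600 higher.

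Of the 7 integrin subunits tested, 1 passed this test, ITGB8, which was lower in HCT116-CD276KO cells and whose groups did not overlap. It had 36.7% of the HCT116-WT level left. All its HCT116-CD276KO values were under 1 TPM, so it met the limit for the test only through the HCT116-WT cultures, and in the fit of all genes without that limit its adjusted p-value from limma was 0.00241. The share of 1 in 7 rests on this single gene, gives no support for the group, and is set here only beside 4.09% of all genes called lower. It was also the only one of the 7 whose groups did not overlap, beside 6.19% of all genes that were lower without overlap and 7.61% in either direction. None of the 7 was called higher. On the log2(TPM + 1) scale, which flattens low genes such as ITGB8, 0 were called with a change of at least 2-fold, beside 0.486% of all genes. With a pseudocount of 0.1 the count was 1, ITGB8, while that over all 13581 genes went from 66 to 112. ITGA2, a collagen receptor subunit, had a mean of 61.8% of the HCT116-WT level but did not pass as deposited, and passed once the length and GC trends were removed. The other 5 subunits, which hold most of the integrin message of these cells, had between 80.3% and 92.0% of the HCT116-WT level and did not pass. All 7 had a log2 fold change below 0, as had 68.1% of all genes, and the median of the 7 was -0.26 beside -0.09 for all genes. With length and GC trends removed 2 of the 7 were called lower, beside 5.19% of all genes, and 4 of the 7 were below 0, beside 46.9% of all genes. The medians were then -0.14 and 0.013. As RNA was taken from whole cultures, fewer cells with a transcript and less of it per cell cannot be told apart.

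The levels covered 4 orders of magnitude. ITGB1 came first, at 464 ± 40.7 TPM (SD, n = 5) in HCT116-WT cells, followed by ITGA3, ITGB5, ITGA5, ITGA2, ITGAV, ITGB8, ITGA1, ITGB3 and ITGB6. In HCT116-WT cells the neighbours ITGA2 and ITGAV overlapped in their values, as did ITGB3 and ITGB6, and all other neighbours were apart. In HCT116-CD276KO cells ITGAV stood above ITGA2 by mean, the values of ITGA5, ITGAV and ITGA2 overlapped from neighbour to neighbour, and ITGB8 overlapped with ITGA1. The places of ITGB3 and ITGB6 were exchanged at the bottom, where both groups lay at or under 0.18 TPM.

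**Figure D1:**
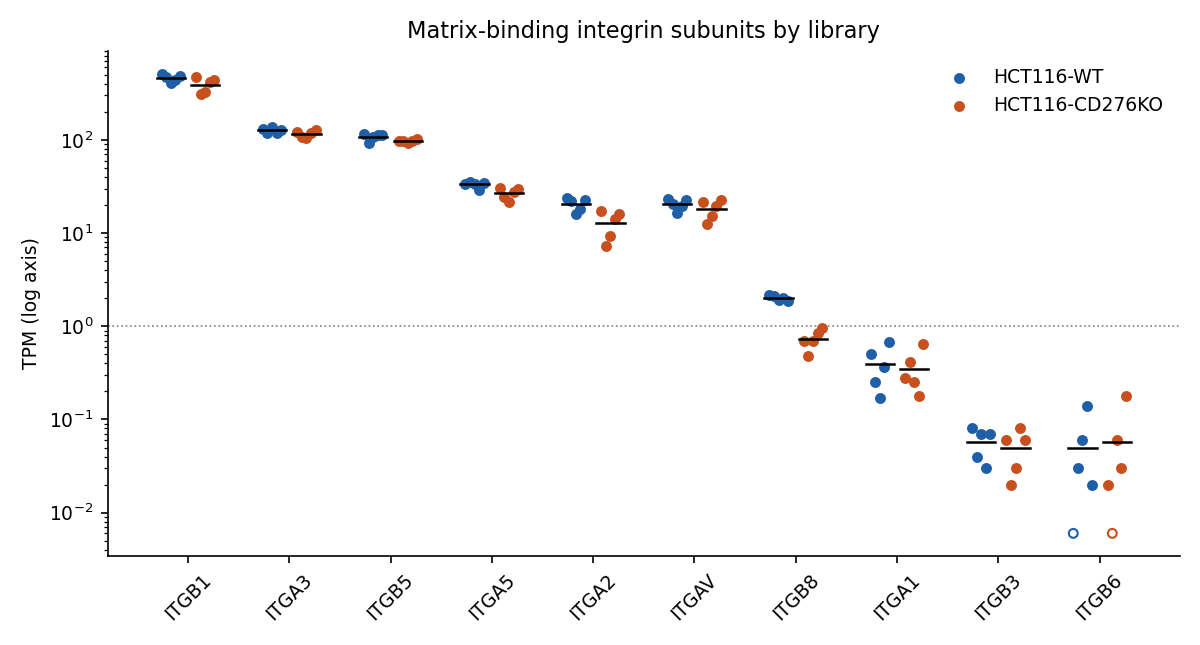
TPM of the 10 integrin subunits on a log axis, with 1 point for each library, HCT116-WT in blue, HCT116-CD276KO in orange, and black bars for group means. Open circles at the bottom mark libraries in which ITGB6 was listed at 0, the dotted line marks 1 TPM, and ITGB8 is the subunit whose 5 orange points all lie under its 5 blue points.

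ITGB8 is the beta subunit of the ITGAV-ITGB8 receptor for latent transforming growth factor beta. The gene (ENSG00000105855) runs from 20330702 to 20415754 on the plus strand of chromosome 7 of hg38, and its reference transcript of 14 exons has 8974 bases, more than in 95.1% of the genes tested. HCT116-WT cultures held 2.14, 2.1, 1.93, 2.01 and 1.86 TPM of ITGB8. HCT116-CD276KO cultures held 0.7, 0.48, 0.7, 0.84 and 0.96 TPM. The highest HCT116-CD276KO value was thus under the lowest HCT116-WT value, and replicate 2, which stands apart by transcript length, was the lowest. The means were 2.01 ± 0.12 TPM and 0.736 ± 0.180 TPM (SD, n = 5 each). The log2 fold change was -0.80 (standard error 0.11, 95% interval -1.03 to -0.56), and limma gave it an adjusted p-value of 0.00129. On the log2(TPM + 1) scale a gene this low appears to change less than it does, and the log2 ratio of the mean TPM was -1.45. The two-sided exact permutation test gave p = 0.00794, the smallest that 5 against 5 allow. Any gene whose groups do not overlap gets this value, as 7.61% of all genes tested did, so it adds nothing to the lack of overlap. Without HCT116-CD276KO replicates 2 and 3 the log2 fold change was -0.72 (limma adjusted p-value 0.00665), and with length and GC trends removed it was -0.59 (limma adjusted p-value 0.00749). The gene is overlapped on the other strand by ITGB8-AS1, at 0.07 to 0.83 TPM, and whether the counting used the strand is not given in the sources used here.

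The sequence before the start site of ITGB8 is shown because it is the subunit that changed, and that of ITGA2 because it lay next to it in size of change. Both are the 250 bases before the GENCODE gene start, from hg38, on the plus strand, with capitals for the GC box GGGCGG in either orientation. The ITGB8 window is chr7:20330452-20330701 and the ITGA2 window chr5:52989090-52989339.
ITGB8: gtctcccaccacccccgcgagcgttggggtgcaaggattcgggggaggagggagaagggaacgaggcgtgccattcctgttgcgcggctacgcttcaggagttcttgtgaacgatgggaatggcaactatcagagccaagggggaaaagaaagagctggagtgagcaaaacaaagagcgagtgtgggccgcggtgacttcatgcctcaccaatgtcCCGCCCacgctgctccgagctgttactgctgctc
ITGA2: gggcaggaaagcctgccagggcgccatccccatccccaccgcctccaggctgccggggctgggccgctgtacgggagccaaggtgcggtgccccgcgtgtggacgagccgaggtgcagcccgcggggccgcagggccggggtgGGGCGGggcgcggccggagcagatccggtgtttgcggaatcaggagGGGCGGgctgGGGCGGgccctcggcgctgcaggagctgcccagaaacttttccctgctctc
The window of ITGB8 held 1 GC box and that of ITGA2 held 3. At least 1 was found in 7 of the 10 subunit windows, beside 49.0% of 20032 windows of the same length before protein-coding genes. Searched on both strands, neither window held the AP-1 site TGACTCA, found in 3.36% of all windows. The cyclic AMP response element TGACGTCA, in 1.89% of all windows, was not found in either. The TATA box, searched as TATAAA and found in 10.0% of all windows, was absent from these letters as well. GC content was 59.6% for ITGB8 and 75.2% for ITGA2. These matches describe the letters only.

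ITGAV, the alpha subunit that ITGB8 depends on, did not pass the test. The gene (ENSG00000138448) runs from 186590010 to 186680901 on the plus strand of chromosome 2, with a reference transcript of 7039 bases in 30 exons. ITGAV measured 23.13, 20.66, 16.29, 19.55 and 22.56 TPM across HCT116-WT cultures. The HCT116-CD276KO cultures measured 21.53, 12.64, 15.33, 19.5 and 22.45 TPM. The groups overlapped over most of their range, and the low values belong to HCT116-WT replicate 3 and HCT116-CD276KO replicates 2 and 3. The log2 fold change was -0.17 (standard error 0.15, 95% interval -0.50 to 0.16, adjusted p-value 0.513 from limma). The sign was not stable: the value was 0.013 with length and GC trends removed and 0.055 without HCT116-CD276KO replicates 2 and 3.

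ITGB8 and ITGAV are both long and poor in GC, and their ratio within a library does not move with the scaling between libraries. Across HCT116-WT cultures ITGB8 had 9.25%, 10.2%, 11.8%, 10.3% and 8.24% of the ITGAV level. Across HCT116-CD276KO cultures it had 3.25%, 3.80%, 4.57%, 4.31% and 4.28%. The groups were well apart, with means of 9.96% ± 1.34 and 4.04% ± 0.52 (SD, n = 5 each), a difference of -1.30 in the log2 ratio.

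The remaining partners of ITGAV differed widely in level. ITGB5, a vitronectin receptor subunit (ENSG00000082781, chromosome 3, 124761948 to 124901418, minus strand, 15 exons), was the abundant one, at 107.5 ± 9.48 TPM in HCT116-WT and 96.9 ± 3.42 TPM in HCT116-CD276KO cells (SD, n = 5 each). Its values lay between 91.44 and 115.45 TPM and between 93.35 and 102.63 TPM. HCT116-WT replicate 2 was the lowest of all 10 libraries, so that the groups overlapped through this library. The log2 fold change was -0.14 (standard error 0.07, 95% interval -0.29 to 0.006, adjusted p-value 0.244 from limma), and it turned to 0.015 with length and GC trends removed and was -0.12 without HCT116-CD276KO replicates 2 and 3. ITGB5 was at 533% ± 83.0 of the ITGAV level in HCT116-WT and at 553% ± 133 in HCT116-CD276KO cells (SD, n = 5 each), so the ITGB5 message exceeded that of its alpha partner in every library.

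ITGB3 (ENSG00000259207, chromosome 17, 47253827 to 47313743, plus strand) and ITGB6 (ENSG00000115221, chromosome 2, 160099667 to 160200313, minus strand) were barely detected. ITGB3, known from platelets and blood vessels, lay between 0.03 and 0.08 TPM in HCT116-WT and between 0.02 and 0.08 TPM in HCT116-CD276KO cells. ITGB6, an epithelial subunit that also binds latent transforming growth factor beta, was listed at 0, 0.03, 0.06, 0.14 and 0.02 TPM for HCT116-WT cultures. For HCT116-CD276KO cultures the entries were 0.02, 0, 0.06, 0.03 and 0.18 TPM. Neither was tested, no direction can be read at these levels, and of ITGB6 and ITGB8 only the latter reached 1 TPM in any library.

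Of the collagen receptor subunits, ITGA2 carried nearly all of the message. The gene (ENSG00000164171) runs from 52989340 to 53094779 on the plus strand of chromosome 5, with a reference transcript of 7843 bases in 30 exons. The ITGA2 level was 23.86, 22.24, 15.82, 18.18 and 22.84 TPM over HCT116-WT cultures. Over HCT116-CD276KO cultures the ITGA2 level was 17.26, 7.18, 9.32, 13.99 and 15.89 TPM. All 5 HCT116-CD276KO values were under the HCT116-WT median, but replicates 1 and 5 reached into the HCT116-WT range through HCT116-WT replicate 3. The means were 20.6 ± 3.43 TPM and 12.7 ± 4.32 TPM (SD, n = 5 each), with a log2 fold change of -0.70 (standard error 0.21, 95% interval -1.17 to -0.24). The adjusted p-value from limma was 0.0868, over the threshold of 0.05. An antisense gene in the locus, ENSG00000272123, was listed at 0 to 1.14 TPM.

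The call on ITGA2 moved with the processing, while its direction did not. With length and GC trends removed the groups no longer overlapped, and the log2 fold change of -0.50 (standard error 0.11) had an adjusted p-value of 0.0190 from limma, in a fit that called 9.64% of all genes. Without HCT116-CD276KO replicate 1 it was -0.82 (adjusted p-value 0.0462 from limma). Without HCT116-CD276KO replicates 2 and 3 it was -0.36 (adjusted p-value 0.258 from limma), so that the size of the difference rested in large part on these libraries. Over all 20 alternatives the adjusted p-value lay between 0.0190 and 0.258.

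As ratios within a library ITGA2 was lower in all HCT116-CD276KO libraries. It had 4.41% ± 0.38 of the ITGB1 level in HCT116-WT and 3.17% ± 0.58 in HCT116-CD276KO cells (SD, n = 5 each), and the groups did not overlap. The ITGB1 transcript has 3735 bases beside 7843 for ITGA2, so this ratio can still move with the length trend. It was lowest in HCT116-CD276KO replicates 2 and 3, at 2.31% and 2.89%. ITGAV, which is not a partner of ITGA2 but is nearest to it in transcript length among the subunits tested, was set beside it after the values had been seen. ITGA2 was at 103%, 108%, 97.1%, 93.0% and 101% of ITGAV over HCT116-WT cultures. It was at 80.2%, 56.8%, 60.8%, 71.7% and 70.8% of ITGAV over HCT116-CD276KO cultures. These groups did not overlap either, and HCT116-CD276KO replicates 2 and 3 were again the lowest.

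ITGA1, the other collagen receptor subunit (ENSG00000213949, chromosome 5, 52787916 to 52959209, plus strand), was under the limit for the test. It lay between 0.17 and 0.67 TPM in HCT116-WT and between 0.18 and 0.64 TPM in HCT116-CD276KO cells, so the groups covered the same range. Its locus holds PELO on the same strand, at 19.17 to 23.71 TPM, and the authors' counting could divide reads between them, so its low level is uncertain.

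ITGA3 and ITGA5 join ITGB1 as the laminin and the fibronectin receptor. ITGA3 (ENSG00000005884, chromosome 17, 50055968 to 50090481, plus strand, 26 exons) was the most abundant alpha subunit, at 126 ± 8.90 TPM in HCT116-WT and 116 ± 9.84 TPM in HCT116-CD276KO cells (SD, n = 5 each). Its values lay between 117.12 and 137.37 TPM and between 105.18 and 128.86 TPM, and the groups overlapped. The log2 fold change was -0.12 (standard error 0.07, 95% interval -0.28 to 0.040, adjusted p-value 0.341 from limma), and it turned to 0.035 with length and GC trends removed and was -0.04 without HCT116-CD276KO replicates 2 and 3.

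ITGA5 (ENSG00000161638) runs from 54395261 to 54419266 on the minus strand of chromosome 12, with 30 exons. Of ITGA5 the HCT116-WT cultures had 33.49, 35.64, 33.82, 28.87 and 34.66 TPM. Those of HCT116-CD276KO had 30.53, 24.16, 21.7, 27.7 and 29.67 TPM. The groups overlapped only through HCT116-WT replicate 4, and the lowest values were those of HCT116-CD276KO replicates 3 and 2. The log2 fold change was -0.31 (standard error 0.10, 95% interval -0.53 to -0.096, adjusted p-value 0.101 from limma). It was -0.17 with length and GC trends removed (adjusted p-value 0.123), -0.18 without HCT116-CD276KO replicates 2 and 3 (adjusted p-value 0.326), and -0.36 to -0.24 with each library left out in turn.

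ITGB1 (ENSG00000150093) runs from 32887273 to 33005792 on the minus strand of chromosome 10, with 16 exons and a reference transcript of 3735 bases. HCT116-WT libraries gave 511.76, 475.5, 408.63, 438.22 and 486.02 TPM for ITGB1. HCT116-CD276KO libraries gave 468.71, 310.23, 322.44, 418.52 and 436.27 TPM. HCT116-CD276KO replicates 2 and 3 were under the other 8 libraries, and the remaining 3 lay within the HCT116-WT range. The log2 fold change was -0.26 (standard error 0.12, 95% interval -0.52 to -0.003, adjusted p-value 0.222 from limma). It was -0.14 with length and GC trends removed and -0.07 without HCT116-CD276KO replicates 2 and 3. A processed pseudogene of 609 bases on chromosome 19, ITGB1P1, was listed at 3.61 to 6.83 TPM in HCT116-WT and at 6 to 9.8 TPM in HCT116-CD276KO cells, and reads shared by the copies may have been divided between them.

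The make-up of the summed message is given as shares. ITGB1 made up 59.8% ± 2.03 of the summed TPM of the 10 subunits in HCT116-WT and 58.7% ± 2.60 in HCT116-CD276KO cells (SD, n = 5 each). ITGA3 followed with 16.3% ± 1.53 and 17.7% ± 1.26, and ITGB5 with 13.9% ± 1.26 and 14.8% ± 1.90. The sum of the 5 alpha subunits was 201 ± 11.3 TPM against 174 ± 21.5 TPM, and ITGB1 alone exceeded it in both groups. ITGB8 took 0.26% ± 0.019 of the sum in HCT116-WT and 0.11% ± 0.020 in HCT116-CD276KO cells.

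The place of each subunit in single libraries is given next. ITGA2, ITGAV and ITGB1 were lowest in HCT116-CD276KO replicate 2, at -1.03, -0.56 and -0.44 from their means over the 10 libraries on the log2(TPM + 1) scale, and next lowest in replicate 3, at -0.70, -0.30 and -0.39. They were highest in HCT116-WT replicate 1, at 0.57, 0.27 and 0.28. ITGB8 had its extremes in the same libraries, at -0.62 in HCT116-CD276KO replicate 2 and 0.46 in HCT116-WT replicate 1, but lay between 0.33 and 0.46 in all HCT116-WT libraries and between -0.62 and -0.22 in all HCT116-CD276KO libraries. Removal of the length and GC trends lowered the SD of ITGAV on the log2 scale from 0.19 to 0.066 in HCT116-WT and from 0.33 to 0.10 in HCT116-CD276KO cells. For ITGB8 the SD went from 0.056 to 0.12 and from 0.15 to 0.16, so the correction did not tighten this subunit.

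**Figure D2:**
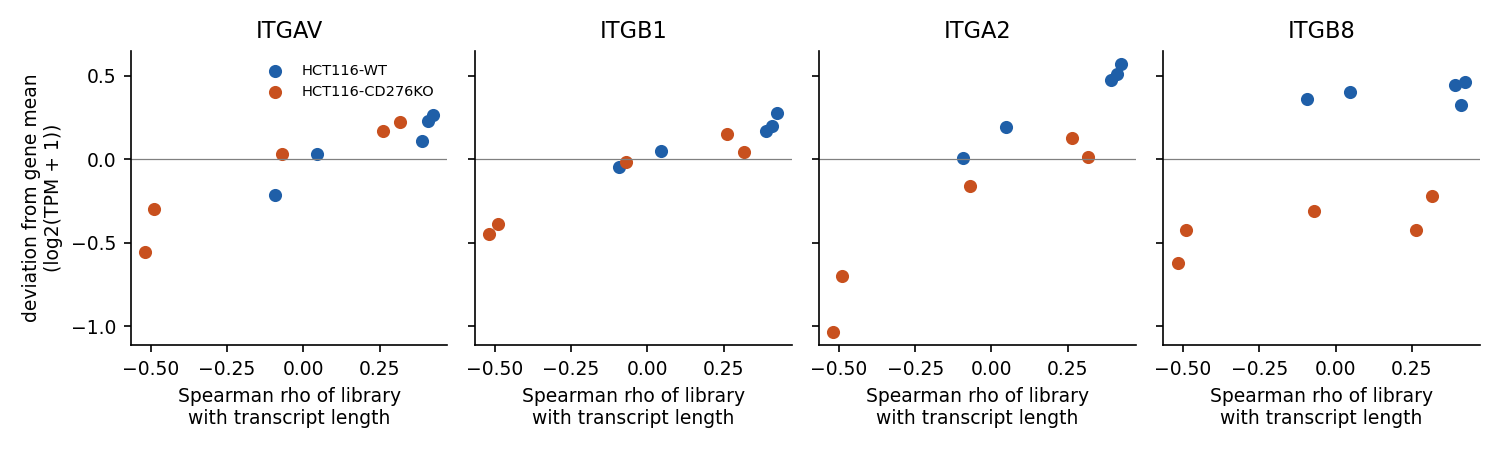
Deviation of ITGAV, ITGB1, ITGA2 and ITGB8 from their mean over the 10 libraries on the log2(TPM + 1) scale, against the Spearman correlation of each library's deviations with transcript length, with 1 point for each library. ITGAV, ITGB1 and ITGA2 are low in the libraries at the left, HCT116-CD276KO replicates 2 and 3, while all HCT116-CD276KO points of ITGB8 lie at or under -0.22 at either end of the axis.

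**Figure D3:**
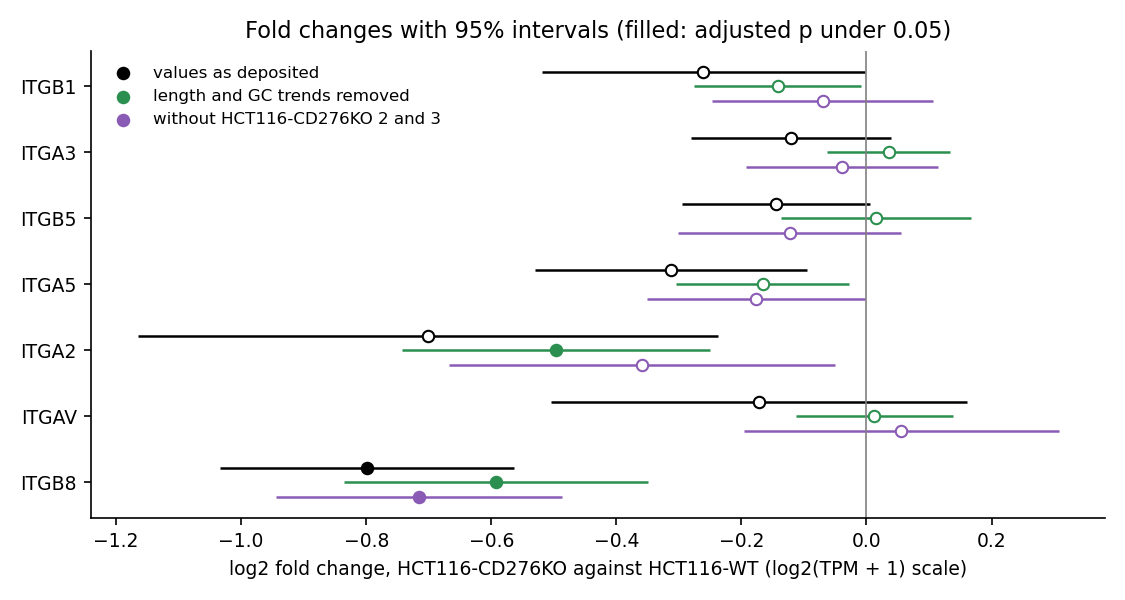
Log2 fold changes of the 7 subunits tested with 95% intervals from limma, as deposited, with length and GC trends removed, and without HCT116-CD276KO replicates 2 and 3. Filled points have an adjusted p-value under 0.05: ITGB8 in all 3 settings and ITGA2 with the trends removed, while ITGA3, ITGB5 and ITGAV change sign with the trends removed.

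Integrins work with proteins that bind their tails, share the membrane with them, bring them back to the surface or serve as their ligands, and lists of these were set beside the 10. Of 16 other integrin subunits only 4 were tested in limma and 0 of them were called, beside 4.87% of all genes. Their median of -0.08 turned to 0.08 with length and GC trends removed. The leukocyte subunits ITGAL, ITGAM, ITGAX, ITGB2 and ITGB7 were at or under 0.77 TPM in every library, values chosen after they were seen. ITGAE, which pairs with ITGB7 on lymphocytes, lay by contrast between 35.94 and 41.7 TPM in HCT116-WT and between 41.94 and 56.08 TPM in HCT116-CD276KO cells, without overlap. Its log2 fold change of 0.31 just missed the threshold (limma adjusted p-value 0.0512), and was 0.45 (0.0297) with length and GC trends removed and 0.21 (0.172) without HCT116-CD276KO replicates 2 and 3; it too was chosen after its values were seen. ITGB4 and ITGA6, the hemidesmosome pair, were the most abundant. ITGB4 lay between 159.11 and 198.55 TPM in HCT116-WT and between 153.79 and 203.52 TPM in HCT116-CD276KO cells. Its log2 fold change of -0.06 (limma adjusted p-value 0.702) turned to 0.11 with length and GC trends removed, to 0.035 after median-of-ratios scaling and to 0.026 without HCT116-CD276KO replicates 2 and 3. ITGA6, which pairs with ITGB1 as well, stood at 97.9 ± 12.2 TPM in HCT116-WT and 63.1 ± 17.2 TPM in HCT116-CD276KO cells (SD, n = 5 each). Its groups did not overlap, its log2 fold change was -0.66, and its adjusted p-value of 0.0528 from limma was just over the threshold. It was under 0.05 in 7 of 20 alternatives, at 0.00902 with length and GC trends removed, and over it without HCT116-CD276KO replicates 2 and 3 (0.125).

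Among 19 proteins that bind integrin tails or sit in the adhesions around them, 18 were tested, 1 was lower and 0 were higher, a share of 5.56% called beside 4.87% of all genes. The median log2 fold change was -0.22 as deposited, -0.06 with length and GC trends removed and -0.07 without HCT116-CD276KO replicates 2 and 3. The lower gene was FERMT1, kindlin-1, which binds the tails of beta subunits and helps to switch integrins on in epithelia. It fell from 23.6 ± 2.92 TPM to 13.9 ± 2.79 TPM (SD, n = 5 each), by limma at -0.74 on the log2 scale with a standard error of 0.13 (adjusted p-value 0.00817). The groups did not overlap, and the fall was called in all 20 alternatives, with adjusted p-values between 0.000496 and 0.0286. Its paralogue FERMT2 stood at a log2 fold change of -0.03 (limma adjusted p-value 0.902), and the talins TLN1 and TLN2 at -0.11 and -0.59 (0.616 and 0.0744), values chosen after they were seen. Of the most abundant members, PXN (paxillin) stood at 229 and 175 TPM (adjusted p-value 0.0830 from limma) and RAP1B, a small GTPase upstream of talin, at 132 TPM in both groups.

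Of 11 genes that hold integrins inactive or bring them back to the surface, 10 were tested and 1 was lower, 10.0% beside 4.09% of all genes, with a median of -0.08 that turned to 0.06 with length and GC trends removed. RAB25, a small GTPase of epithelial recycling, stood at 71.3 ± 1.67 TPM and 60.6 ± 1.80 TPM (SD, n = 5 each), which is -0.23 on the log2 scale (limma adjusted p-value 0.0228), without overlap. Its call was lost after median-of-ratios scaling (log2 fold change -0.13, adjusted p-value 0.270) and after quantile normalization (adjusted p-value 0.170), and held in 13 of 20 alternatives. RAB11A and FLNA, the most abundant, had log2 fold changes of -0.10 and -0.06, and both turned positive with length and GC trends removed, at 0.035 and 0.15, FLNA also after median-of-ratios scaling, at 0.038. Among 11 partners in the membrane, all tested, PLAUR (the urokinase receptor) was the only gene called, 9.09% of the list beside 4.87% of all genes, at -0.48 on the log2 scale (limma adjusted p-value 0.00129). The median of the membrane partners was -0.04, and 0.02 with length and GC trends removed. BSG and CD63, the most abundant, had log2 fold changes of -0.18 and 0.11 and adjusted p-values of 0.187 and 0.343 from limma.

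Of 28 ligands 17 were tested, and 2 were lower and 2 higher, with a median log2 fold change of -0.20, and of -0.11 with length and GC trends removed. The share of 23.5% called stands beside 4.87% of all genes. With the replicate block the ligand share was 17.6%, beside 378 of 13581 genes called. Without the filter it was 11.1% of the 27 ligands then tested, beside 542 of 30818 genes. With 1 library left out 3 to 6 of the 17 ligands were called, beside 343 to 857 of 13581 genes. The ligand share was highest, at 35.3%, without HCT116-CD276KO replicate 1, the fit with 857 genes called. LAMB3 codes for a chain of a laminin of epithelial basement membranes, and that laminin is bound by the ITGA3-ITGB1 receptor. LAMB3 fell from 24.4 ± 1.32 to 14.1 ± 3.13 TPM (SD, n = 5 each). Its log2 fold change was -0.77 (limma adjusted p-value 0.00513), and the call held in all 20 alternatives. NPNT (nephronectin), a basement membrane ligand known best with ITGA8, had a log2 fold change of -0.55 and an adjusted p-value of 0.0443 from limma. This call was near the threshold, held in 10 of 20 alternatives, and was absent without HCT116-CD276KO replicates 2 and 3 (adjusted p-value 0.142).

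The 2 ligands called higher as deposited were both of the CCN family of matricellular proteins, which bind ITGAV pairs among others. CCN1 measured 13.21, 13.67, 15.56, 15.18 and 12.98 TPM over HCT116-WT cultures and 19.05, 21.89, 18.56, 21.67 and 23.95 TPM over HCT116-CD276KO cultures. CCN2 rose from 2.26 ± 0.34 to 4.00 ± 0.76 TPM (SD, n = 5 each). Neither gene's groups overlapped, and the log2 fold changes were 0.54 and 0.61 with adjusted p-values of 0.00423 and 0.0153 from limma. These calls held in all 20 alternatives for CCN1 and in all 19 in which CCN2 was tested. SPP1 (osteopontin), another ligand of ITGAV pairs, had means of 1.40 and 2.08 TPM without overlap and did not pass as deposited (limma adjusted p-value 0.0683). After median-of-ratios scaling, after quantile normalization and with length and GC trends removed 3 ligands were called higher, SPP1 being the third, which was named after its values were seen. LAMC1 and MFGE8, the most abundant ligands, had log2 fold changes of -0.54 and 0.10 and adjusted p-values of 0.124 and 0.491 from limma. FN1 stood at 2.96 and 3.13 TPM by mean, and VTN, COL1A2, COL3A1, COL4A1 and COL4A2 were at or under 0.14 TPM in every library, values chosen after they were seen. Of the ligands bound by ITGAV-ITGB8, TGFB1 was at 30.7 and 27.0 TPM (adjusted p-value 0.249 from limma), also chosen after it was seen, and no call was made.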

How the data were processed

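RNA of 5 HCT116-WT and 5 HCT116-CD276KO cultures was sequenced from polyadenylated, strand-specific libraries as single reads. The authors mapped reads to hg38 with STAR 2.5.2b and quantified an Ensembl annotation with RSEM 1.3.0 and featureCounts 1.5.1, versions per the submitters' processing notes. They deposited TPM with 2 decimals, and which program gave them is not stated. TPM keep no read counts, so library depth cannot be had from them, and precision rests on the 5 cultures of each group. The file has no column for other samples.

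Genes whose mean reached 1 TPM were compared on log2(TPM + 1) with limma 3.58.1 in R 4.3.3, with a variance trend, two-sided, with Benjamini-Hochberg adjustment over all 13581 genes; limma/voom on counts, the study's method, could not be run on TPM. Windows before gene starts came from hg38. Symbols, positions, lengths and GC content came from GENCODE 44 on the same assembly, matched for 56947 of 58050 identifiers. Length and GC trends were removed from each library by local regression with a span of 0.3. On simulated data of 13581 genes, 90 of 100 genes changed 2-fold and 54 of 100 changed 1.41-fold were called, and 6 unchanged genes were called too. The simulated noise was independent between genes and held no trend with length or GC content. These counts thus do not cover the trends of the real libraries. Python 3.11.15, scipy 1.17.1 and matplotlib 3.10.9 were used for the rest. Groups came from the sample titles, and no library was left out.

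Named were the 10 subunits, CD276, and from each list the 2 most abundant and up to 6 called genes. Of the ligand list 1 gene is not reported here and was left out of its counts. Members and lists were chosen with earlier results of these data known. Alternatives were a pseudocount of 0.1, no filter, a mean of at least 5 TPM, median-of-ratios scaling, quantile normalization, the length and GC correction, robust empirical Bayes, the replicate number as a block, the block with the correction, each library left out and the log2 ratio of mean TPM. Leaving out HCT116-CD276KO replicates 2 and 3 together was added after seeing the data.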

Additional observations from a re-analysis of the deposited data

Results flagged for a closer look

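For each named gene and each group of 5 libraries, the distance of an end value from the next one was set against the whole range. Of 56 such groups 4 had a distance over 0.71 of the range, where chance gives about 2.8. None was an integrin subunit of the 10. FLNA, which holds integrin tails inactive, reached 398.47 TPM in the HCT116-CD276KO library of replicate 2, far over the 239.1 to 255.39 TPM of the rest, with 0.898 of the range between. BSG reached 786.05 TPM in the HCT116-WT library of replicate 3, over 630.84 to 656.19 TPM in the rest, at 0.837 of the range. LAMB3 was low in HCT116-WT replicate 4, with 22.05 TPM against 24.44 to 25.22 TPM, at 0.754 of the range. For PLAUR the HCT116-CD276KO library of replicate 4 was high, with 54.89 TPM against 49.24 to 50.75 TPM, at 0.733 of the range.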

How the results depend on the processing

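ITGB8 kept its fall and its call in all 19 fits in which it was tested. The log2 fold change ranged from -1.36 to -0.59 and the limma adjusted p-value from 0.000454 to 0.0280. With each library left out the log2 fold change was -0.84 to -0.74. These fits share libraries, and in all but the fit without the filter ITGB8 met the limit only through the HCT116-WT cultures. Without the filter ITGB8 had a log2 fold change of -0.80 and a limma adjusted p-value of 0.00241. Its log2 ratio of mean TPM was -1.45. At a mean of at least 5 TPM it was not tested, which left 0 subunits called, beside 512 of 10200 genes. With a pseudocount of 0.1 the count past 2-fold was 1 instead of 0, beside 112 instead of 66 over all genes. It was 0 in every fit without 1 library. With length and GC trends removed 2 of the 7 subunits tested were called, beside 1299 of 13472 genes. With the block as well the same count was 2, beside 688 of 13472 genes. In both fits ITGA2 stood at -0.50, and ITGA3, ITGAV and ITGB5 turned to 0.035, 0.013 and 0.015. ITGAV was also turned, to 0.055, without HCT116-CD276KO replicates 2 and 3. Between 1 and 2 subunits were called with 1 library left out, beside 343 to 857 of 13581 genes, when ITGA2 ranged from -0.82 to -0.53. The count of 2 came without HCT116-CD276KO replicate 1, the fit with 857 genes called. ITGB3 moved from -0.011 to -0.079 with a pseudocount of 0.1 and to -0.21 as a ratio of means, and ITGB6 from 0.01 to 0.21 as a ratio, where the pseudocount of 1 flattens levels this low.

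The number of all genes called, 662, was 1299 with length and GC trends removed, 378 with the replicate block, 339 without HCT116-CD276KO replicates 2 and 3, and 343 to 857 with 1 library left out: 345, 376, 421 and 343 without HCT116-WT replicates 1, 2, 4 and 5, and 407 and 375 without HCT116-CD276KO replicates 3 and 4. The calls were 556 lower and 106 higher on the deposited scale, 389 and 191 after median-of-ratios scaling, 385 and 253 after quantile normalization, and 699 and 600 with length and GC trends removed. Of the other integrin subunits 2 of the 3 tested at a mean of at least 5 TPM were called, beside 512 of 10200 genes. They were ITGA6, lower, and ITGAE, higher, named after their values were seen, with limma adjusted p-values of 0.0468 and 0.0489. With the trends removed the same 2 were called. The count was 1 with quantile normalization, the robust fit, the replicate block and the block with the correction. With 1 library left out it was 0 to 2. Tail binding genes called were 2 with the trends removed and 1 to 2 with 1 library left out. Of the inactivating and recycling genes 2 were called with the trends removed, 0 after median-of-ratios scaling, quantile normalization and the replicate block, and 0 to 1 with 1 library left out. Membrane partners called were 3 with the trends removed. In that fit 9.64% of all genes were called. Beside this the shares called were 50.0% of the 4 other subunits tested and 11.1% of the tail binding genes. They were 20.0% of the inactivating and recycling genes and 27.3% of the membrane partners. Causes were not tested except where stated. Whether the replicate numbers pair the samples is not given in the sources used here. Correlations of deviations between libraries of the same number lay between -0.18 and 0.12. Of 5 HCT116-WT libraries 1 correlated best with its own number. The deviations also hold the library trends with length and GC content, so these correlations cannot decide the question. With the replicate block 1 of the 7 subunits tested was called, ITGB8, with a limma adjusted p-value of 0.0220. That stands beside 378 of 13581 genes called. The cultures of 1 clone and the unknown depth limit all values, most of all those under 1 TPM.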
